A study of Rattus norvegicus with 4 samples.

Results

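Glucose phosphate isomerase and the enzymes of lower glycolysis, from aldolase to pyruvate kinase, were followed through the transcriptome of rat oligodendrocyte precursor cells (OPCs), the dividing cells that give rise to myelinating oligodendrocytes. The members are 10 genes, Gpi, Aldoa, Aldoc, Tpi1, Gapdh, Pgk1, Pgam1, Eno1, Eno2 and Pkm. They were found by matching the transcript accession that the arrays list for each probe to RefSeq, which gave 23 of the 45565 probes with a value on every array, for 10 of 16568 named genes. OPCs came from cerebral cortices of Sprague-Dawley rats at postnatal day 2, with the tissue of several animals pooled. They were transfected with 50 nM siRNA on being moved from proliferating to differentiating medium, which contains the thyroid hormone T3, and were lysed 48 h afterwards, which was day in differentiation 2. The siGPR17 OPCs received a pool of siRNAs against rat Gpr17, a G protein-coupled receptor that OPCs express transiently while they mature, and the siNEG OPCs a non-targeting pool. Each condition had 2 samples, each on 1 one-color Agilent array. The labels call the samples of a condition independent without naming separate isolations, so that the p-values measure the spread between these samples.

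Glycolysis splits glucose into pyruvate. Gpi turns glucose 6-phosphate into fructose 6-phosphate, aldolase cuts the doubly phosphorylated sugar into a pair of triose phosphates that Tpi1 interconverts, and the later enzymes oxidise and rearrange these until Pkm releases pyruvate and ATP. Most of these reactions run near equilibrium, and the step of Pkm is irreversible. Several steps have more than one gene. In the brain, Aldoc is typical of astrocytes and of a subset of Purkinje cells and Eno2 of neurons, whereas Aldoa and Eno1 are widely expressed. In oligodendrocytes, glycolysis supplies energy and carbon, and the lactate made from its pyruvate can be passed on to axons.

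Of the 10 genes, 9 had a higher signal in siGPR17 than in siNEG OPCs, and the remaining gene was Aldoc (52% of all tested genes were higher by any amount). Over the 10 genes the median log2 fold change was 0.41, beside 0.01 over the 11656 genes with a tested probe. In all 9, the lower siGPR17 array exceeded the higher siNEG array, an order held by 28.1% of all tested genes, with the reverse order in 25.3%. Eno2 alone reached a fold change of 1.5, beside 2.43% of all genes. None of the 10 passed the thresholds of the study here, a fold change of 1.5 with an adjusted p under 0.07. Neither did any other gene (0 of 11656 in limma, or 0%, and 0 in the methods' t-test). The paper itself lists differentially expressed genes at these thresholds, which the processing used here did not recover. An unadjusted limma p under 0.05 was found for 8 of the 10, all higher in siGPR17, beside 7.43% of all genes higher and 8.73% lower at the same level (1884 genes in both directions). The count was 6 in the methods' t-test. The limma count depended on single arrays, being 4 without siGPR17 replicate 1 and 2 without siGPR17 replicate 2.

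Here and below, a signal is the brightness of a probe after each array was scaled to its 75th percentile, a gene is represented by its brightest tested probe, and log2 fold changes are siGPR17 over siNEG with their standard error (SE). Adjusted p-values are those of limma after the Benjamini-Hochberg correction over 28016 probes. Signals of different probes cannot be compared with each other. Gpr17 itself had signals of 1107 and 1113 on the siNEG and 652.3 and 639.4 on the siGPR17 arrays, which gave a log2 fold change of -0.78 (SE 0.085, adjusted p = 0.209), so that the labels and the targeted transcript go together. The 4 arrays shared 1 slide and 1 scan. The siNEG arrays were in its column 4 and the siGPR17 arrays in its column 3, and column and treatment cannot be told apart. Per array, 26997 to 28244 probes were well above background and 0 non-control spots were saturated. The smallest two-sided p of an exact permutation test over 4 arrays is 0.333. In bulk RNA, fewer cells of a type and less RNA per cell cannot be told apart.

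**Figure D1:**
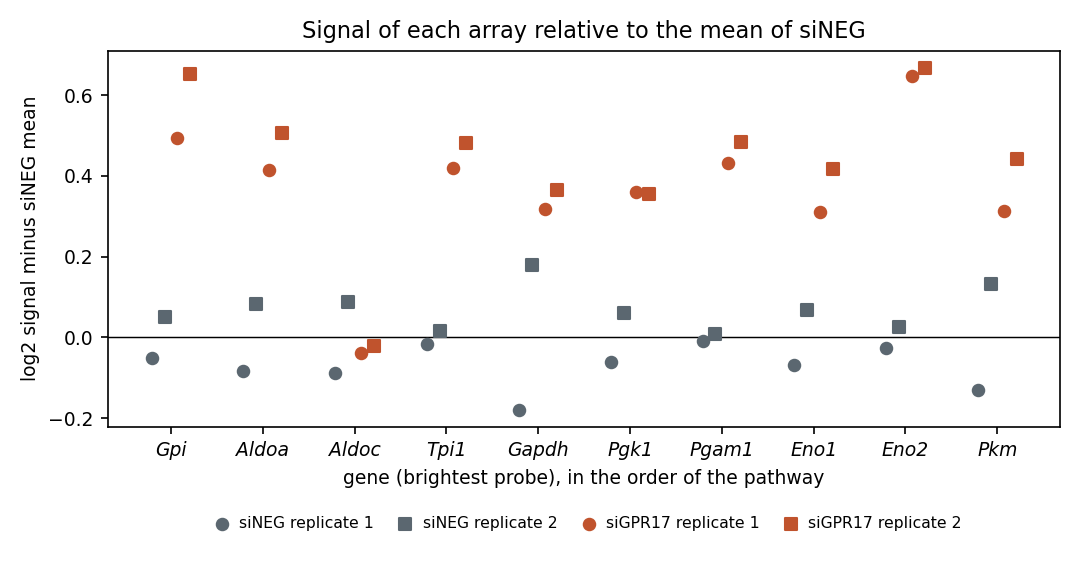
Signal of the brightest probe of each gene on each of the 4 arrays, as log2 difference (vertical axis) from the mean of the 2 siNEG arrays, with genes on the horizontal axis in pathway order. Except for Aldoc, whose siGPR17 points (-0.04 and -0.02) lie between the siNEG points, both siGPR17 arrays of every gene lie above both siNEG arrays.

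The arrays of a condition were close to each other. Taken over the 10 genes, the median deviation from the siNEG mean was -0.06 and 0.06 on the siNEG arrays and 0.39 and 0.46 on the siGPR17 arrays on the log2 scale. All 10 genes were brighter on siNEG replicate 2 than on siNEG replicate 1, by a median of 0.13, where the median over all tested genes was 0.06. In siGPR17, 9 of the 10 were brighter on replicate 2, by a median of 0.06. The siNEG difference moves with brightness: among the brightest 10% of genes, which include 7 of the 10 members, its median was 0.16. The treatment difference of these bright genes had a median of 0.02.

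**Figure D2:**
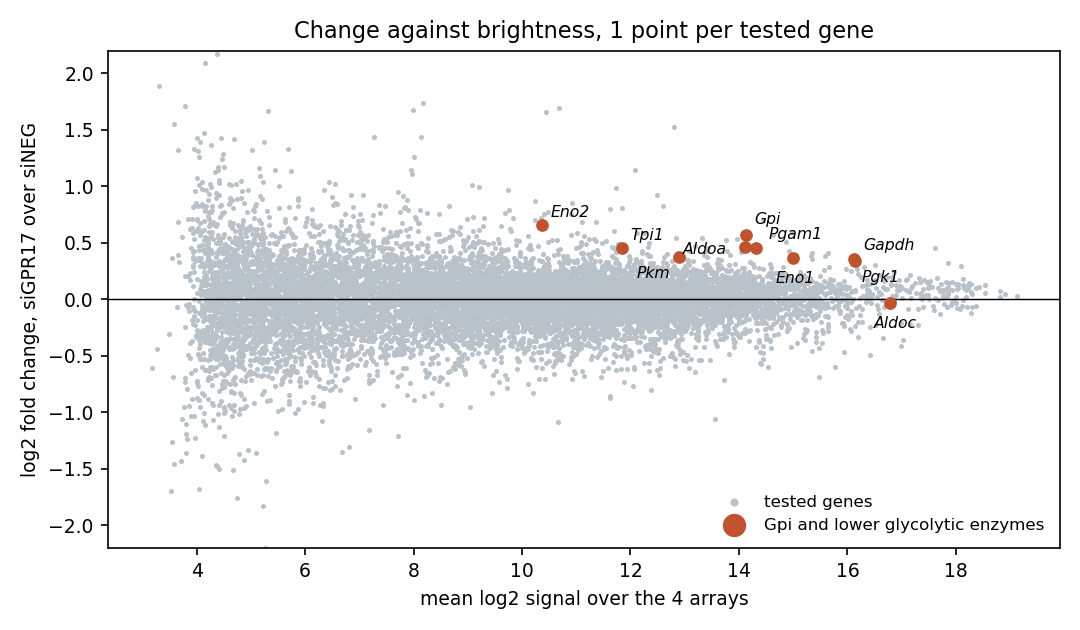
Log2 fold change of siGPR17 over siNEG (vertical axis) against mean log2 signal over the 4 arrays (horizontal axis), with 1 grey point per tested gene and the 10 enzymes in orange. The enzymes lie towards the bright end, and 9 of them sit between 0.34 and 0.66, while Aldoc sits at -0.03 (7 of 11656 genes lie outside the vertical range).

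At the isomerase step, Gpi had signals of 14149 and 15199 on the siNEG and 20641 and 23038 on the siGPR17 arrays. The lowest siGPR17 value was above the highest siNEG value. The log2 fold change was 0.57 (SE 0.11, 95% interval 0.28 to 0.86, adjusted p = 0.210), a fold of 1.49, which ranked 298 from the highest of 11656 genes. It was measured by the single probe A_44_P414170.

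Aldolase is the step at which a pair of detected genes went apart. Aldoa had signals of 14322 and 16069 in siNEG and of 20236 and 21531 in siGPR17 OPCs. Both siGPR17 values were above both siNEG values, with a log2 fold change of 0.46 (SE 0.11, 95% interval 0.17 to 0.75, adjusted p = 0.218). Aldoc had signals of 107483 and 121582 in siNEG and of 111314 and 112583 in siGPR17 OPCs. Here the siGPR17 values lay inside the range of the siNEG values. The log2 fold change was -0.03 (SE 0.10, 95% interval -0.32 to 0.26, adjusted p = 0.902). The sign of this small difference depended on the processing, being 0.0074 with normexp background correction, 0.10 with scaling on spike-in controls and 0.059 without siNEG replicate 2. The Aldoc probe was printed 10 times per array, and of its 20 siGPR17 spots 0 were brighter than every one of the 18 siNEG spots kept.

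The ratio of the Aldoa to the Aldoc probe does not depend on scalings that shift every gene of an array by the same amount. Quantile normalization and normexp are not of this kind. Relative to its siNEG mean on the log2 scale, it was 0.01 and -0.01 in siNEG and 0.45 and 0.53 in siGPR17 OPCs. The difference of 0.49 (SE 0.037 from the arrays) is larger than the spread of either condition, and its exact permutation p of 0.333 is the smallest that 4 arrays can give.

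Both aldolase promoters hold the letters of the core to which hypoxia-inducible factors bind, ACGTG or GCGTG, read on either strand. They are shown because the gene that was higher and the gene that was not share this feature. The sequences are the 250 bases before the RefSeq start of each gene in the assembly GRCr8, 5′ to 3′ along the gene, with matches to either core in capitals. Of 3 windows listed for Aldoa the one with a match is given.
Aldoa, chr1:190836778-190837027, minus strand: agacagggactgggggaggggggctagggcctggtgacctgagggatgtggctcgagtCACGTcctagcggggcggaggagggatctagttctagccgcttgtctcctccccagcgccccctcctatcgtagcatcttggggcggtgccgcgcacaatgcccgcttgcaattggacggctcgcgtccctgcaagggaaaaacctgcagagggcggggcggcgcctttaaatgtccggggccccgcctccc
Aldoc, chr10:63715294-63715543, plus strand: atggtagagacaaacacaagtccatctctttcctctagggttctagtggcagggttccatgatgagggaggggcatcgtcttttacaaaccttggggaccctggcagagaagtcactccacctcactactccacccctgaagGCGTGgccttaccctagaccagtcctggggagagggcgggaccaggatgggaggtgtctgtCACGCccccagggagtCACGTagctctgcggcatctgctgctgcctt
Aldoa has 1 ACGTG, which begins 192 bases before the start. Aldoc has 1 ACGTG and 2 GCGTG, which begin 31, 108 and 47 bases before the start. A match of letters is a description and not a measured binding site.

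Because Aldoc is also an astrocyte gene, the astrocyte markers are given beside it. Gfap, the astrocyte filament protein, had signals of 295.4 and 261.4 in siNEG and 167.7 and 198.1 in siGPR17 OPCs. Aqp4, the water channel of astrocyte endfeet, had signals of 160.9 and 168.8 in siNEG and 72.9 and 57.1 in siGPR17 OPCs. For both, the siGPR17 values lay below the siNEG values (log2 fold changes -0.61 and -1.35, adjusted p = 0.216 and 0.209). The glutamate transporter Slc1a3, which OPCs also express, had a log2 fold change of -0.37 (SE 0.095). S100b, a calcium-binding protein that oligodendrocyte lineage cells also make, was named after its values were seen. It had signals of 2256 and 2524 in siNEG and 3338 and 3415 in siGPR17 OPCs, the latter higher (log2 fold change 0.50, SE 0.10, adjusted p = 0.211). Over the list of 9 astrocyte genes, 8 were tested, 4 were higher and 4 lower in siGPR17, and 1 higher and 3 lower had an unadjusted p under 0.05. The summed signal of all 9 was 11090 and 12009 in siNEG and 10872 and 10906 in siGPR17 OPCs, and the connexin gene Gjb6 was well above background on none of the 4 arrays. The part of astrocytes in the values of Aldoc was not tested.

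At the triose phosphate step, Tpi1 had signals of 3105 and 3172 in siNEG and 4196 and 4378 in siGPR17 OPCs. The replicates of each condition were close and the conditions did not overlap, with a log2 fold change of 0.45 (SE 0.087, 95% interval 0.21 to 0.69, adjusted p = 0.210). Tpi1 is the only gene of its step, and 1 probe measured it.

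Gapdh, which oxidises glyceraldehyde 3-phosphate and reduces NAD, was measured by 8 probes. The brightest gave signals of 57017 and 73010 in siNEG and 80481 and 83031 in siGPR17 OPCs. Both siGPR17 values were above the siNEG values, but the siNEG arrays differed widely from each other. The log2 fold change was 0.34 (SE 0.15, 95% interval -0.07 to 0.75, adjusted p = 0.348), and leaving out an siNEG array moved it to 0.16 (replicate 1) or 0.52 (replicate 2). The 8 probes, whose siNEG means ran from 5516 to 65013, were all higher in siGPR17, by 0.14 to 0.39 with a median of 0.26. For 6 of them the conditions did not overlap, and for 1 the unadjusted p was under 0.05. The rat genome holds many processed copies of Gapdh, and whether a probe also reads them was not determined here. The testis form Gapdhs was dim, with signals of 29.8 and 22.3 in siNEG and 17.5 and 20.4 in siGPR17 OPCs (log2 fold change -0.45, SE 0.18).

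The Gapdh promoter is shown as the member window with the most matches along with Aldoc. It has 1 ACGTG, which begins 121 bases before the start, and 2 GCGTG, which begin 216 and 206 bases before it.
Gapdh, chr4:159652468-159652717, minus strand: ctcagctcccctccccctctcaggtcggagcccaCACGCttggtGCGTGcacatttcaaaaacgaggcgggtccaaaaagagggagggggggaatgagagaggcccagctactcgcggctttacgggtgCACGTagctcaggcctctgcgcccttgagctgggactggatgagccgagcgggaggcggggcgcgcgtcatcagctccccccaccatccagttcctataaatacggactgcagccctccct

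The first ATP of lower glycolysis is made by Pgk1, which had signals of 60086 and 65298 in siNEG and 80369 and 80112 in siGPR17 OPCs. The siGPR17 values nearly coincided and lay above both siNEG values. The log2 fold change was 0.36 (SE 0.094, 95% interval 0.10 to 0.61, adjusted p = 0.237). The testis gene Pgk2 was well above background on none of the 4 arrays.

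Pgam1 moves the phosphate group of 3-phosphoglycerate. Its probe gave signals of 17257 and 17484 in siNEG and 23435 and 24276 in siGPR17 OPCs. The conditions were apart, with a log2 fold change of 0.46 (SE 0.086, 95% interval 0.22 to 0.69, adjusted p = 0.210), and all 17 siGPR17 spots of the probe that were kept were brighter than all 18 siNEG spots. Such spots repeat the same RNA and are not replicates. The muscle form Pgam2 was dim and its arrays overlapped (log2 fold change 0.21, SE 0.27). Bpgm, which makes 2,3-bisphosphoglycerate, had signals of 16288 and 20190 in siNEG and of 16094 and 15535 in siGPR17 OPCs. Both siGPR17 values were below both siNEG values (log2 fold change -0.20, SE 0.14, adjusted p = 0.508).

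Enolase dehydrates 2-phosphoglycerate, and both of its genes with a role in the brain were higher in siGPR17 OPCs. Eno1, the general form, had signals of 27332 and 30038 in siNEG and 35520 and 38272 in siGPR17 OPCs. The conditions did not overlap, with a log2 fold change of 0.36 (SE 0.10, 95% interval 0.08 to 0.65, adjusted p = 0.249). Its 3 probes gave 0.32 to 0.39, and each had an unadjusted p under 0.05.

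Eno2, the neuronal form, was the member with the largest difference. Its brighter probe gave signals of 1035 and 1075 in siNEG and 1652 and 1675 in siGPR17 OPCs. The replicates lay close together and the conditions were apart. The log2 fold change was 0.66 (SE 0.086, 95% interval 0.42 to 0.89, adjusted p = 0.209), a fold of 1.58, which ranked 202 from the highest of 11656 genes. The second Eno2 probe gave 263.1 and 220.3 in siNEG and 331.1 and 385.2 in siGPR17 OPCs, with a log2 fold change of 0.57. The adjusted p of the brighter probe passed the threshold under normexp (0.0245, log2 fold change 0.63) and with the trend and robust options of limma (0.0189), and over all 15 alternatives it ran from 0.0189 to 0.665.

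The ratio of Eno2 to Eno1, relative to its siNEG mean on the log2 scale, was 0.04 and -0.04 in siNEG and 0.34 and 0.25 in siGPR17 OPCs. The difference of 0.29 (SE 0.060) exceeded the spread within each condition, again with the smallest possible exact permutation p of 0.333. Eno3, the muscle form, had signals of 781.7 and 847.3 in siNEG and 897.8 and 912.5 in siGPR17 OPCs (log2 fold change 0.15, SE 0.093, adjusted p = 0.460). Eno4 did not enter the test.

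The 250 bases before the start of Eno2 are shown as those of the member with the largest difference, and those of Pgam1 as a member with an ACGTG at nearly the same distance. Eno2 has 1 ACGTG, which begins 139 bases before the start, and Pgam1 has 1 ACGTG at 141 and 1 GCGTG at 115 bases before it.
Eno2, chr4:159267221-159267470, minus strand: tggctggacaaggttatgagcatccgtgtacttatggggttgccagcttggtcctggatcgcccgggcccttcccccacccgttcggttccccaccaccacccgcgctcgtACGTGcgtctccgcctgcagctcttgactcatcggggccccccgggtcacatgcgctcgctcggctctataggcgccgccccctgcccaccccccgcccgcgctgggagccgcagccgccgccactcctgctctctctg
Pgam1, chr1:250672902-250673151, plus strand: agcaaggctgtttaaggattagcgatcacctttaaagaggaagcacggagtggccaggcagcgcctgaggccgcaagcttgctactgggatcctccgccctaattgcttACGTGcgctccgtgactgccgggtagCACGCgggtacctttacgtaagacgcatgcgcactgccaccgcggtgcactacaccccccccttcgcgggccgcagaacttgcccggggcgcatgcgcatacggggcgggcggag

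Neuronal markers are given beside Eno2. Tubb3, a neuronal tubulin, had signals of 1844 and 2284 in siNEG and 1846 and 1702 in siGPR17 OPCs, with overlapping arrays. Snap25, of the synaptic release machinery, had signals of 352.5 and 375.0 in siNEG and 285.1 and 283.5 in siGPR17 OPCs, the latter lower (log2 fold change -0.35, SE 0.090, adjusted p = 0.233). The splicing factor Rbfox3, a marker of neuronal nuclei, had a log2 fold change of -0.11 (SE 0.090). All 9 tested neuronal genes of 10 were lower in siGPR17, 4 of them with an unadjusted p under 0.05, and their median log2 fold change was -0.23. With normexp or quantile normalization 1 of the 9 was higher, and with spike-in scaling 2. The summed signal of all 10 neuronal genes was 7377 and 8725 in siNEG and 7129 and 6864 in siGPR17 OPCs. Slc17a7, the vesicular glutamate transporter of excitatory neurons, was well above background on none of the 4 arrays. The part of neurons in the values of Eno2 was not tested.

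Pkm, the last step, had signals of 6081 and 7294 in siNEG and 8269 and 9042 in siGPR17 OPCs on its brightest probe. The conditions did not overlap, with a log2 fold change of 0.38 (SE 0.13, 95% interval 0.02 to 0.74, adjusted p = 0.288), which was 0.25 without siNEG replicate 1. Of 4 Pkm probes 3 were tested, with log2 fold changes of 0.21 to 0.38. The fourth, A_64_P024077, was well above background on none of the 4 arrays. Which of the spliced forms of Pkm each probe reads was not determined here. Of 7 genes that act on this splicing or on its factors, 3 were higher and 4 lower, and Nek2 was the only one with an unadjusted p under 0.05 (log2 fold change -0.40, SE 0.11). The liver form Pklr was well above background on none of the 4 arrays.

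**Figure D3:**
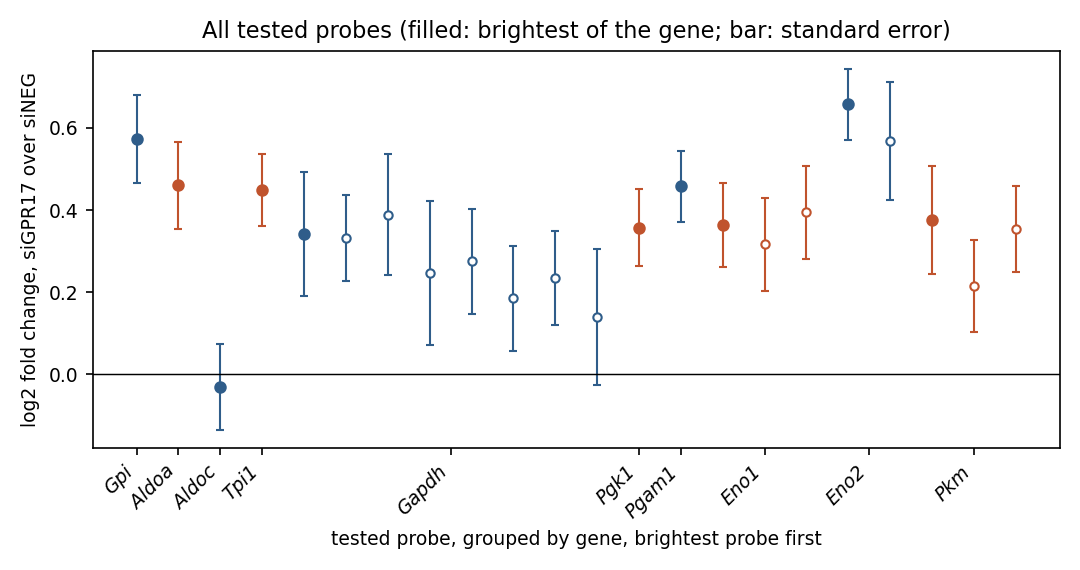
Log2 fold change of siGPR17 over siNEG (vertical axis) for each of the 22 tested probes of the 10 genes, grouped by gene along the horizontal axis, with bars for the limma standard error. Filled points are the brightest probe of a gene, and 21 of 22 probes lie above 0, the exception being that of Aldoc.

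Taking every probe on its own, 22 of the 23 were tested and 21 were higher in siGPR17, beside 51.6% of all tested probes. For 19 the conditions did not overlap (27.4% of all probes), and 13 were higher with an unadjusted p under 0.05 (7.58%). Probes of 1 gene share their transcript and are not independent. Of the 28016 probes 1 passed both thresholds (0.00357%), and it was not a member. The SD of log2 spot signals within an array was 0.02 to 0.08 over the 8 member probes printed 10 times. In 6 of these 8 probes every siGPR17 spot was brighter than every siNEG spot, the exceptions being Aldoc and the brightest Pkm probe (17 of 18 spots).

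The other genes of the same steps did not all share the direction of the members. Eno3 (log2 fold change 0.15) and Pgam2 (0.21) had higher means in siGPR17, and Bpgm (-0.20) and Gapdhs (-0.45) lower ones. For none of these 4 genes was the unadjusted limma p under 0.05. Pgk2, Eno4 and Pklr were not tested.

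**Figure D4:**
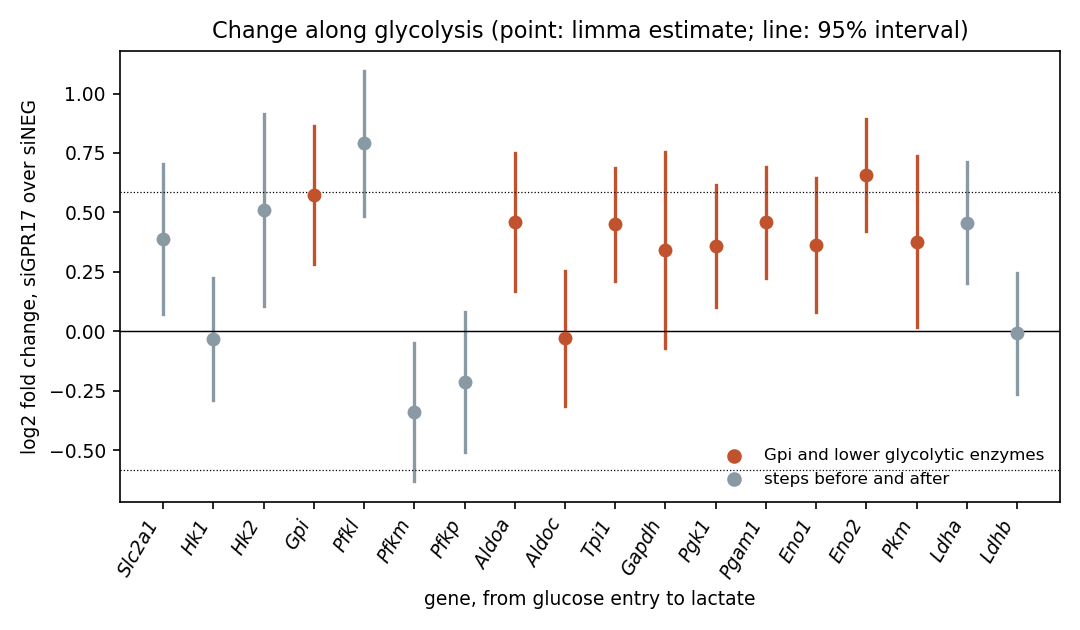
Log2 fold change of siGPR17 over siNEG (vertical axis) with its 95% interval from limma for the genes from glucose entry to lactate in pathway order (horizontal axis), the 10 enzymes in orange and earlier and later steps in grey, with dotted lines at a fold change of 1.5. From Tpi1 to Pkm every point lies above 0, whereas Hk1, the phosphofructokinases Pfkm and Pfkp, Aldoc and Ldhb lie below it.

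Upstream of aldolase the genes of a step went in different directions. The glucose transporter Slc2a1 had a log2 fold change of 0.39 (SE 0.12, adjusted p = 0.260). Of the hexokinases, which trap glucose by phosphorylation, Hk2 had signals of 128.4 and 163.7 in siNEG and 204.1 and 208.8 in siGPR17 OPCs (log2 fold change 0.51, SE 0.15), and Hk1 had overlapping arrays (-0.03, SE 0.094). Phosphofructokinase, the main point of control, has 3 genes. Pfkl had signals of 609.5 and 704.6 in siNEG and 1127 and 1139 in siGPR17 OPCs, with a log2 fold change of 0.79 (SE 0.11, adjusted p = 0.209). Pfkm had signals of 2571 and 2924 in siNEG and 2155 and 2175 in siGPR17 OPCs, with a log2 fold change of -0.34 (SE 0.11, adjusted p = 0.265). Pfkp also had lower siGPR17 values (-0.21, SE 0.11, adjusted p = 0.392). For both genes every siGPR17 value was below every siNEG value. Over the list of 15 genes of glucose entry and upper glycolysis, 13 were tested, 8 were higher and 5 lower, 3 and 1 with an unadjusted p under 0.05, and the median was 0.03. Between 6 and 10 of the 13 were higher under other scalings.

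Downstream, Ldha, the lactate dehydrogenase subunit that favours lactate formation, had a log2 fold change of 0.46 (SE 0.093, adjusted p = 0.211) with both siGPR17 arrays above both siNEG arrays, close to that of the members. Ldhb, the subunit associated with lactate use, had signals of 13869.5 and 15022 in siNEG and 14239.6 and 14452 in siGPR17 OPCs, which overlapped (-0.01, SE 0.093, 95% interval -0.26 to 0.25). In the list of 17 genes that handle pyruvate and lactate, 16 were tested, 9 were higher and 7 lower, and the median was 0.06. The largest differences upwards were those of the lactate exporter Slc16a3 (0.67, SE 0.14) and of the pyruvate dehydrogenase kinase Pdk1 (0.51, SE 0.095). Downwards they were those of Pdk3 (-0.33, SE 0.093) and the monocarboxylate transporter Slc16a7 (-0.32, SE 0.11). Slc16a3 was dim, with signals of 29.5 and 28.3 in siNEG and 41.1 and 51.5 in siGPR17 OPCs. Slc16a7 was dim too (55.4 and 55.2, then 41.5 and 47.3). Slc16a1, which encodes the transporter MCT1 studied in the paper, was at 0.09 (SE 0.091, adjusted p = 0.633). In all, 5 higher and 2 lower genes had an unadjusted p under 0.05, and 8 to 12 of the 16 were higher under other scalings.

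The enzymes of the reverse pathway and of the glycerol branch, which share the reversible members, had a median of 0.01 over 7 tested genes of 10, with 4 higher and 3 lower (2 to 5 higher under other scalings). Of these, Gpd2, the mitochondrial glycerol phosphate dehydrogenase, had signals of 825.9 and 903.1 in siNEG and 653.4 and 635.1 in siGPR17 OPCs, which did not overlap (-0.42, SE 0.096). The gluconeogenic phosphatase gene Fbp1 had the highest estimate (1.37), but with an SE of 1.43 it was not distinguishable from 0.

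A promoter window of 300 bases, from 250 before to 50 after a start, was listed for 9 of the 10 genes, in 12 windows. A window was not matched for Pgk1. ACGTG occurred in 7 of the 12 windows, beside 19.3% of all 33469 windows. These windows belonged to 7 of the 9 genes, for which no share over all genes was computed. GCGTG occurred in 5 of the 12 windows, beside 29.7%. Either core was present in 8 of 12 (41.6% of all windows). The GC box GGGCGG was present in 8 of 12 (33.1%). The E-box CACGTG, which would contain ACGTG, and the cAMP response element TGACGTCA were in none of the 12 windows, beside 6.42% and 1.83% of all windows. The member windows had a median GC content of 62%, against 51.7% over all windows, and both cores and the GC box consist mostly of G and C. Tpi1 and Pkm had neither core, and Aldoc had 3 matches. In Gpi and in a window of Eno1 the ACGTG lay after the start, at 32 and 38 bases. By position, the windows of Eno2, Tpi1 and Gapdh lay within 386 kb of each other on chromosome 4.

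Other targets of hypoxia-inducible factors outside glycolysis went partly the same way. Of 13 tested genes of 14, 9 were higher and 4 lower in siGPR17, 4 of the higher ones with an unadjusted p under 0.05, and the median log2 fold change was 0.11 (7 to 12 higher under other scalings). P4ha2, a collagen prolyl hydroxylase, had signals of 110.3 and 80.7 in siNEG and 246.0 and 263.6 in siGPR17 OPCs (log2 fold change 1.43, SE 0.18, adjusted p = 0.209). Vegfa, the endothelial growth factor, had a log2 fold change of 0.47 (SE 0.092, adjusted p = 0.211), and all siGPR17 values of both genes were above their siNEG values. A further list joined genes of subunits of these factors, genes whose products restrain them, and another transcription factor. In it 6 of 8 tested genes were lower, with a median of -0.18 (0 to 3 of the 8 higher under other scalings). Because the list is mixed, its median gives no direction for the factors. Epas1, a subunit gene, was at -0.45 (SE 0.13) and Hif1an, which encodes an inhibitor, at -0.34 (SE 0.10), both with an unadjusted limma p under 0.05.

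Markers of the cells that the culture should and should not hold were measured on the same arrays. Of the OPC markers 7 of 8 had a tested probe, with summed signals of 211625 and 251752 in siNEG and 205539 and 207724 in siGPR17 OPCs. Of the markers of mature oligodendrocytes 8 of 9 were tested, and Mal was well above background on none of the 4 arrays. The summed signals of all 9 were 342006 and 387808 in siNEG and 396567 and 409701 in siGPR17 OPCs. All 7 OPC markers were lower in siGPR17, with a median log2 fold change of -0.15 (3 of them higher with spike-in scaling and 1 with normexp), and 3 of 8 mature markers were higher. Of 8 tested microglial genes of 9, 7 were lower in siGPR17 and 1 higher, with a median log2 fold change of -0.17 (0 to 3 higher under other scalings and normexp). Of these, Aif1 (-0.56, SE 0.12) and P2ry12 (-0.32, SE 0.10) had an unadjusted p under 0.05. The summed signal of the list was 3881 and 2614 in siNEG and 2622 and 3084 in siGPR17 OPCs. Of 6 endothelial genes 3 were tested, and all 3 were higher in siGPR17, with a median log2 fold change of 0.51 (0.25 with normexp), beside 0.41 for the glycolytic enzymes. Kdr (0.68, SE 0.11), a receptor for Vegfa, and Tek (0.51, SE 0.13), the angiopoietin receptor, had an unadjusted p under 0.05. The summed signal of all 6 endothelial genes, tested or not, was 337.2 and 354.4 in siNEG and 508.1 and 507.2 in siGPR17 OPCs. Of 8 fibroblast and mural genes 3 were tested and were higher, with a median of 0.27, 0 of them with an unadjusted p under 0.05 in limma. The summed signal of all 8 fibroblast and mural genes, tested or not, was 480.9 and 359.1 in siNEG and 509.5 and 486.4 in siGPR17 OPCs. The endothelial genes Pecam1 and Cldn5 and the fibroblast and mural genes Dcn, Lum, Pdgfrb and Rgs5 were not well above background on any array. The part of these cells in the glycolytic values was not tested.

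**Figure D5:**
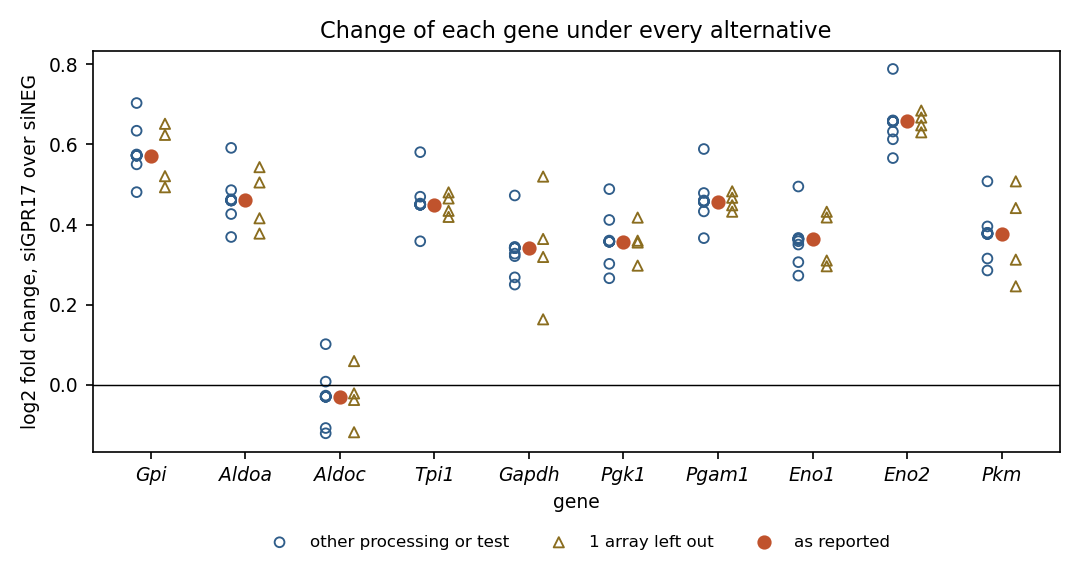
Log2 fold change of siGPR17 over siNEG (vertical axis) of each of the 10 genes (horizontal axis), as reported in this text (filled), under other processing or tests (circles) and with 1 array left out (triangles). Aldoc alone crosses 0, from -0.12 to 0.10, and the lowest value of any other gene is 0.16.

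Scaling the arrays in another way shifted all genes together. The median over all genes became 0.14 with scaling on 272 spike-in spots and -0.08 with scaling on 11 reference genes. The median of the members, taken relative to that of all genes, was 0.40 in each. It cannot differ between these scalings, because each shifts every gene by the same amount. Of the 15 alternatives, 5 alter the test or the set of probes and leave a member's fold change as it is. Under the 10 that can move it, the 9 genes other than Aldoc kept their direction, as the plot of the alternatives shows.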

How the data were processed

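RNA of 2 siNEG and 2 siGPR17 OPC samples was measured on one-color Agilent arrays. The authors deposited, for each array, spot intensities from Agilent Feature Extraction 10.7.3.1. Per the file headers, the processed intensity is corrected for background and spatial trends, with very low signals replaced by small positive values, and is not normalized between arrays.

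Each deposited intensity was taken to the log2 scale here, less the 75th percentile of its array. Controls and spots flagged as outliers were dropped, and repeated spots of a probe were averaged. Signals are printed on the linear scale after 1 factor common to all arrays. A probe was tested where 2 or more of the 4 arrays showed it well above background (28016 of 45565). The test was limma 3.58.1 (lmFit, eBayes; R 4.3.3) with no block and Benjamini-Hochberg adjustment. The thresholds are those of the study, namely 1.5 for the fold and 0.07 for the adjusted p. Conditions came from the sample labels. The precision is limited by the number of arrays, 2 per condition. The code was tested on simulated data.

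Probes were named by their transcript accessions through a RefSeq table of GRCr8, which matched 21093 probes, 19243 of 20489 curated mRNA accessions among them. The brightest tested probe stands for a gene, a choice by brightness over all 4 arrays. Promoter sequences are those of RefSeq in GRCr8.

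The members and gene lists were chosen with earlier results of these data known. The text names the 10 members, Gpr17, the other genes of the same steps (leaving out 1 gene, not reported here), the neighbouring steps (Slc2a1, hexokinases, phosphofructokinases and lactate dehydrogenases), 6 astrocyte and neuron markers and, of other lists, at most the 2 genes with the largest difference in each direction. Markers not well above background are named too, as is Slc16a1, whose product the paper studied. Alternatives were normexp (offset 50, on spot medians in place of means), quantile, median, spike-in and reference gene scaling, other filters on dim probes, trend and robust estimation, the unpaired t-test that the methods name for 2 groups, a replicate block, the mean of a gene's probes, and each array left out. With 1 array left out, the lone array is taken to vary like the other group. Metabolite, lipid and PCR data were not analysed here.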

Additional observations from a re-analysis of the deposited data

How the results depend on the processing

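Of 15 alternatives, 5 leave the fold change of a member as it is. The other 10 moved 94 values of the 10 genes, 91 of which kept their direction. For the 9 genes other than Aldoc, leaving out 1 array could not reverse the direction, because their conditions did not overlap. The 3 values that changed direction were all of Aldoc. They were 0.0074 with normexp, 0.10 with spike-in scaling and 0.059 without siNEG replicate 2 (-0.12 to 0.059 over the arrays left out). The number of genes past the thresholds was 0 in the main setting used here, which is not the count of the paper. It was 112 with normexp (60 higher, 52 lower, Gpi at 0.63 and Eno2 at 0.63 among them). It was 184 with trend and robust estimation (87 higher, 97 lower, Eno2 at 0.66 among them) and 0 in every other setting that kept all 4 arrays. The cause was not tested. The median of the members was 0.54 with spike-in scaling and 0.32 with reference gene scaling, against 0.41 in the main setting, since these scalings move all genes. With 1 array left out, it ran from 0.34 to 0.49 (0.34 without siNEG replicate 1, 0.49 without siNEG replicate 2), the number of members higher from 9 to 10, and the number of them with an unadjusted p under 0.05 from 2 to 9. With the replicate number as a block, 0 genes were past the thresholds, 9 members were higher, 8 had an unadjusted p under 0.05, and the lowest adjusted p of a member was 0.390. Same-numbered arrays also shared a row of the slide, row 1 for replicate 1 and row 2 for replicate 2. The correlation of their deviations was -0.065 over 28016 probes. Whether they share a preparation was not tested. The block changed no call of a member. Since 4 arrays allow no exact p under 0.333, a missed threshold does not show that a gene was unaltered.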

Other observations

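Gapdh is a common reference in real-time PCR, and the PCR of this study was scaled to it. The values that follow were chosen after the array results had been seen. Taken relative to the Gapdh probe on the same array, and then to the siNEG mean, the log2 ratio of Gpr17 was 0.17 and -0.17 on the siNEG and -1.09 and -1.16 on the siGPR17 arrays. The difference of -1.12 (SE 0.18) compares with -0.78 on the scale of the whole array. For Mbp, the myelin basic protein, the ratio to Gapdh was 0.07 and -0.07 in siNEG and -0.04 and 0.00 in siGPR17 OPCs, a difference of -0.02 (SE 0.078, exact permutation p = 1), where the array scale gave 0.32 (SE 0.11, adjusted p = 0.294 in limma). For Cspg4, the OPC proteoglycan NG2, the difference was -0.82 (SE 0.12) relative to Gapdh and -0.48 (SE 0.095) on the array scale. The number of ratios to Gapdh computed was 3, and none could reach an exact p under 0.333. All use the brightest Gapdh probe, whose log2 fold change was 0.34. The 8 Gapdh probes ran from 0.14 to 0.39 with a median of 0.26, so that the ratios depend on the probe. The PCR of the paper, also scaled to Gapdh, showed higher Mbp and lower NG2 after silencing.

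Among 11 other genes often used as references, 8 were higher and 3 lower in siGPR17, with a median log2 fold change of 0.07. They ran from -0.12 for Ppia, a cyclophilin, to 0.43 for Gusb, the lysosomal glucuronidase, and Gusb was the only one of the 11 above Gapdh, which was at 0.34. With scaling on spike-in controls all 11 were higher, with quantile normalization 7, and with scaling on the reference genes themselves 4. Under an unadjusted p of 0.05, 2 were higher and 0 lower in limma, and 0 of the 11 passed the thresholds after adjustment.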
